A study of Homo sapiens with 20 samples.

Results

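The collagen chains were examined in RNA of TPC-1, an established line of papillary thyroid cancer, that had been kept with PMN-MDSCs for 48 h. PMN-MDSCs are myeloid-derived suppressor cells of the polymorphonuclear kind, immature neutrophil-like cells that dampen T cells. There were 6 coculture and 4 control RNA-seq libraries, the controls being TPC-1 cells without treatment, and as many miRNA-seq libraries of each kind. A chain was taken as any protein-coding row of the gene table whose symbol consisted of COL, a type number, A and a chain number. That choice gave 44 genes of 28 collagen types, among 54261 rows of which 20148 were protein-coding. The 22 chains with enough counts to be tested belonged to 15 types, and the other 22 chains were not tested. How the cells were brought together, where the PMN-MDSCs came from and whether they were removed before RNA extraction is not stated in the sources used here. Nothing in the labels says that the libraries came from separate cultures, so the p-values measure the spread between samples, which may be technical in part.

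Collagens are mostly secreted proteins in which chains wind around each other into a triple helix, and most types are built from their own chains. Fibrillar types (I, II, III, V, XI, XXIV and XXVII) form or nucleate fibres, type IV forms the sheet-like scaffold of basement membranes, and type VI forms beaded filaments that lie between basement membrane and stroma. Follicular thyroid cells rest on a basement membrane, and the fibrillar chains of a thyroid tumor come in large part from its stromal fibroblasts. A type VI monomer contains the COL6A1 and COL6A2 products together with a longer chain from COL6A3, COL6A5 or COL6A6.

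Of the 22 tested chains, COL6A1 and COL6A2 were higher in coculture, 0 were lower and 20 did not pass the test, an edgeR quasi-likelihood test with an adjusted p under 0.05 over all 15629 genes tested. Over all tested genes 1.14% were called higher and 0.186% lower. The median log2 fold change of the tested chains was 0.09, against 0.0082 over all tested genes. COL6A1 and COL6A2 were also the only tested chains whose 6 coculture libraries all lay above the 4 controls, which 2.45% of all tested genes did. An unadjusted edgeR p under 0.05 was reached by 4 of the 22 chains, COL1A1, COL5A1, COL6A1 and COL6A2, and by 9.66% of all tested genes. DESeq2 and limma-voom each called COL6A1 and COL6A2 higher and 0 chains lower.

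**Figure D1:**
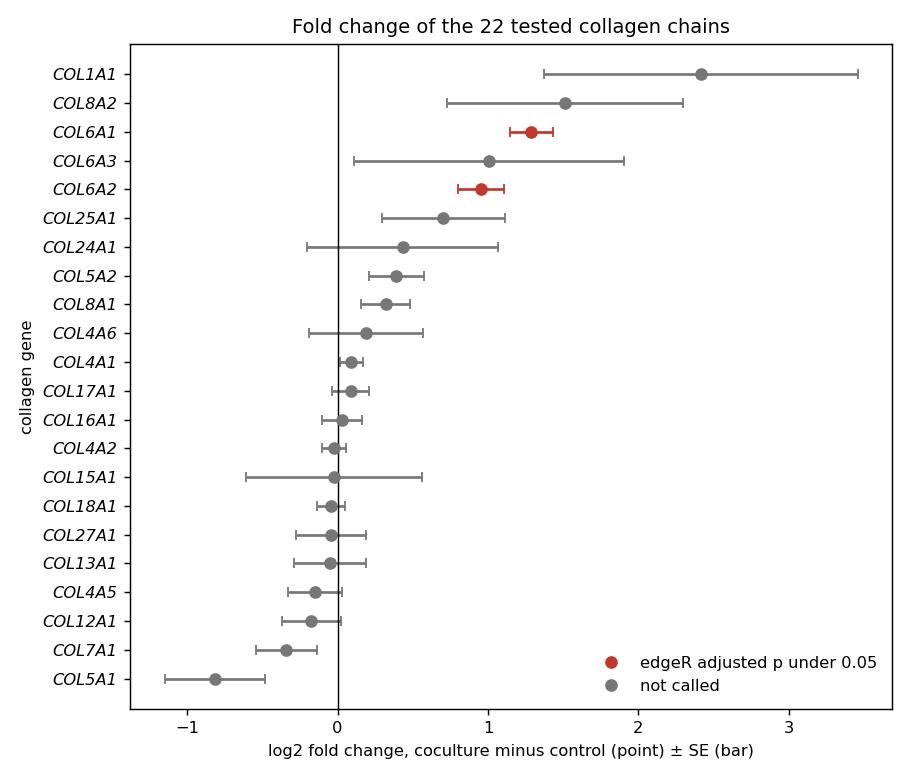
Log2 fold change of each of the 22 tested collagen chains, coculture minus control (horizontal axis), with genes down the page; bars are the SE of the edgeR fit and red points passed an adjusted p of 0.05. COL6A1 (1.29) and COL6A2 (0.95) passed, while COL1A1 (2.41) has a larger value and a far wider bar.

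COL6A1, which encodes the first short chain of collagen VI, lay at chr21:45981749-46005049 on the plus strand. Its level, in counts per 1000000 counts of the library after scaling of library sizes (CPM), was 681, 691, 417, 617, 572 and 652 in coculture libraries 1 to 6, against 238, 294, 232 and 227 in controls 1 to 4. Every coculture library lay above every control, and the lowest, coculture 3, still exceeded the highest control. The means were 605 ± 102 CPM in coculture and 248 ± 31.4 CPM in controls (SD, n = 6 and 4). The fold change was 2.44, or 1.29 ± 0.14 on the log2 scale (approximate 95% interval 1.01 to 1.57), with an edgeR adjusted p of 0.000576. By p-value it ranked 20 of all tested genes.

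COL6A2 encodes the partner short chain and lay further along the same arm, at chr21:46098071-46132849 on the plus strand. Its levels were 430, 463, 249, 323, 313 and 346 CPM in coculture libraries 1 to 6, against 171, 198, 183 and 180 CPM in controls 1 to 4. Again the groups did not overlap, and coculture 3 was again the lowest of the coculture libraries. The means were 354 ± 79.2 CPM in coculture and 183 ± 11.5 CPM in controls (SD, n = 6 and 4). The fold change was 1.94, or 0.95 ± 0.15 on the log2 scale (95% interval 0.65 to 1.25), with an edgeR adjusted p of 0.00669, and it ranked 93 by p-value.

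The 2 genes were 93021 bases apart. Of the other 11 rows of the table within 200 kb of either gene, 6 were tested and 0 were called, with a smallest edgeR adjusted p of 0.689, 0 at an unadjusted p under 0.05, and 0 called by DESeq2 or limma-voom. Among all tested genes edgeR called 1.14% higher and 0.186% lower, and 9.66% reached an unadjusted p under 0.05. So 0 of 6 is near those shares. PCBP3, which encodes an RNA-binding protein and lies before COL6A1, was at 0.227 ± 0.145 CPM in coculture and 0.198 ± 0.087 CPM in controls. MCM3AP, which encodes an mRNA export factor and lies past COL6A2, was at 106 ± 18.4 CPM in coculture and 112 ± 4.73 CPM in controls. No row of the table overlapped COL6A1 or COL6A2.

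The 250 bases before the start that RefSeq gives COL6A2 (GRCh38.p14, chr21:46097862-46098111, plus strand) are shown because this gene is called and its promoter is in the table used. Capitals mark each GGGCGG, the core of a GC box, on either strand and each TATAAA.
COL6A2 upstream: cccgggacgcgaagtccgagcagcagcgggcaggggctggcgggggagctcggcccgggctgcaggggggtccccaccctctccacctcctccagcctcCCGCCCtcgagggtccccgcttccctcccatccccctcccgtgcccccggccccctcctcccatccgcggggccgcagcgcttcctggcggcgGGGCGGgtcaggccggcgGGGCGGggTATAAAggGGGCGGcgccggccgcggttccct
GGGCGG or its reverse complement stood at 4 places, and a single TATAAA lay 32 to 27 bases before that start. Over 35116 RefSeq windows of 300 bases around gene starts, searched on both strands, 45.0% held GGGCGG and 11.5% held TATAAA. The NF-kB consensus matched at 1 place, 186 to 176 bases before the start, and in 11.3% of all windows. These are matches of letters, not measured binding. The start in the deposited table lies before RefSeq's, so the last bases shown are inside the gene as deposited. Promoter windows were matched for 32 of the 44 chains, and those without an entry were COL1A1, COL1A2, COL2A1, COL3A1, COL5A2, COL6A1, COL6A5, COL8A1, COL9A3, COL14A1, COL20A1 and COL22A1.

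The long type VI chains were scarce. COL6A3, the usual long chain, was at 14.8, 0.821, 1.05, 0.523, 1.44 and 0.867 CPM in coculture libraries 1 to 6, against 1.47, 0.84, 2.38 and 1.78 CPM in controls 1 to 4. Only coculture 1 lay above the controls, and the fold change of 1.01 ± 0.90 on the log2 scale did not pass (edgeR adjusted p = 0.766). Without coculture 1 it was -0.78 ± 0.34 (edgeR adjusted p = 0.525). COL6A5, another long chain, had 2 counts over the coculture libraries and 4 over the controls, and COL6A6 had 0 counts in all 10 libraries. At this depth, 0 counts allow up to 3 counts per library, or 0.0632 to 0.0758 CPM.

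Within each library the ratio of COL6A1 to COL6A2, counts divided by the deposited length, was higher in coculture. It was 1.40, 1.32, 1.48, 1.69, 1.61 and 1.66 in coculture libraries 1 to 6, against 1.23, 1.31, 1.12 and 1.11 in controls 1 to 4. Every coculture value lay above every control value, though coculture 2 and control 2 were close. The means were 1.53 ± 0.15 in coculture and 1.19 ± 0.095 in controls, a log2 difference of 0.35 (exact two-sided permutation test, p = 0.00952, the smallest that 6 against 4 allows). This was the only chain ratio tested, and the test was chosen with earlier results of these data known. Without cocultures 1 and 2 the difference was 0.43 on the log2 scale (exact two-sided permutation test, p = 0.0286).

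**Figure D2:**
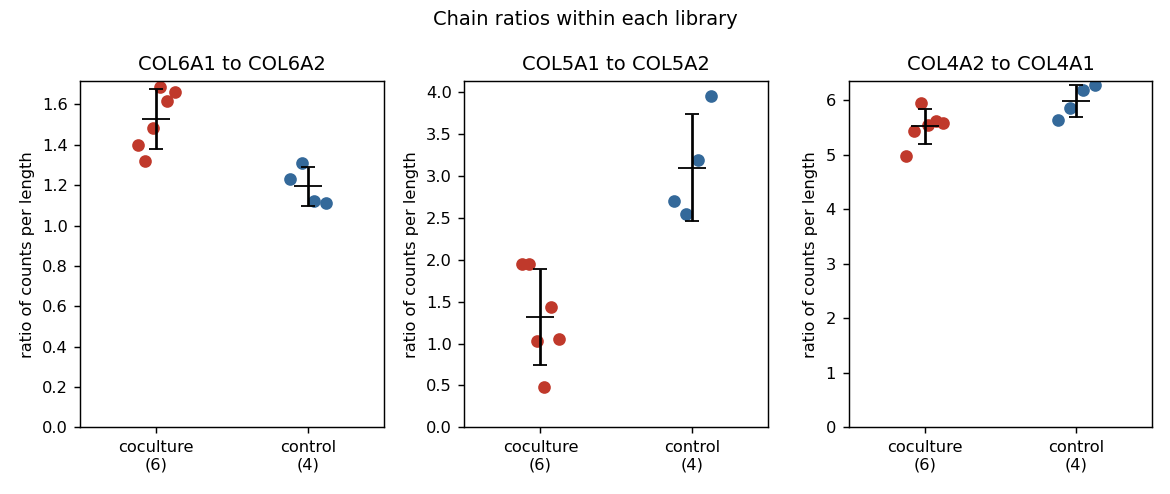
Ratio of a pair of collagen chains within each library, as counts per deposited length (vertical axes from 0), for coculture (red, left) and control (blue, right); lines are the mean and the SD. COL6A1 to COL6A2 ran 1.32 to 1.69 in coculture and 1.11 to 1.31 in controls, COL5A1 to COL5A2 was lower in coculture, and COL4A2 to COL4A1 overlapped between the groups.

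Type VI made up more of the collagen transcripts in coculture. Scaled by length (CPM per kilobase), type VI took 67.6 ± 5.4% of the summed level of the 44 chains in coculture and 49.6 ± 2.0% in controls. COL6A1 alone took 40.7 ± 3.1% in coculture and 26.95 ± 2.02% in controls. Type IV took 16.99 ± 3.29% in coculture and 27.2 ± 1.6% in controls, and type XVIII 3.99 ± 0.62% in coculture and 6.55 ± 0.25% in controls. The summed level was 350 ± 42.0 CPM per kilobase in coculture and 217 ± 12.5 in controls. Leaving COL6A1 and COL6A2 out of the sum, it was 112 ± 9.75 CPM per kilobase in coculture and 109 ± 4.41 in controls. These shares follow from the same counts as the fold changes and were given no test. They also rest on the deposited lengths, whose definition is not given. Those lengths put COL4A1 at 14378 bases and COL4A2 at 6264, and a longer length lowers a chain's share.

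**Figure D3:**
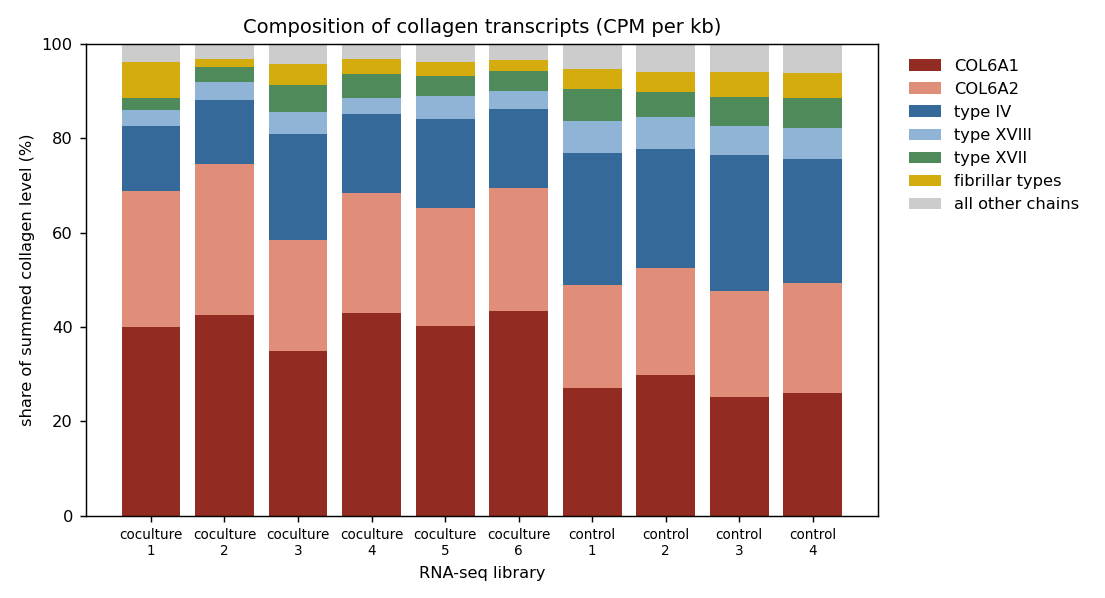
Share of the summed collagen level (CPM per kilobase, percent) taken by COL6A1, COL6A2 and groups of other chains in each of the 6 coculture libraries (left) and 4 control libraries (right). COL6A1 and COL6A2 together filled 58.5 to 74.6% in coculture and 47.6 to 52.5% in controls, and the fibrillar part was widest in coculture 1, at 7.55%.

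RNA of leukocyte genes was present in the coculture libraries. Of 15 leukocyte and PMN-MDSC markers, the 8 tested (CD53, TYROBP, FCER1G, LYZ, ITGAM, S100A9, CD14 and CD74) were called higher in coculture by edgeR. Among all tested genes 1.14% were called higher. All 8 markers passed the count filter only through the coculture libraries, so a call could only be higher, and their number is not a result. FCER1G did not pass without coculture 6 or without control 1, 3 or 4 (edgeR adjusted p = 0.0672 to 0.127). The summed level of the 15 was 16.3 to 32.7 CPM in coculture and 0.198 to 0.474 CPM in controls. Among the neutrophil genes, FCGR3B and ELANE were at 0 counts in every library. S100A8 (53 counts), CSF3R (11), MPO (10) and CEACAM8 (1) had counts in coculture and 0 in controls, and were not tested. In coculture libraries 1 to 6 the marker sum was 29.4, 16.3, 26.8, 31.2, 22.2 and 32.7 CPM. COL6A1 was at 681, 691, 417, 617, 572 and 652 CPM in the same order. In bulk RNA, more cells of a type and more RNA per cell cannot be told apart, and the part of the PMN-MDSCs in the collagen VI values was not tested. Cocultures 1 and 2 also stood apart on the first principal component over all genes (-66.1 and -60.6, the other 8 libraries at 0.908 to 31.8, 39.3% of the variance). Without both, COL6A1 was at 1.18 ± 0.13 and COL6A2 at 0.74 ± 0.09 on the log2 scale, with edgeR adjusted p of 0.000397 and 0.000718.

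Type IV, the basement membrane collagen, had the next largest share per length. COL4A2, one of its 2 common chains, was at 284, 267, 328, 293, 326 and 303 CPM in coculture libraries 1 to 6, against 298, 304, 331 and 288 CPM in controls 1 to 4. The ranges overlapped almost fully, and the fold change was -0.02 ± 0.08 (95% interval -0.18 to 0.13) on the log2 scale. COL4A1, the other common chain, was at 131, 113, 127, 121, 133 and 124 CPM in coculture libraries 1 to 6, against 121, 119, 123 and 105 CPM in controls 1 to 4. Its fold change was 0.09 ± 0.08 (95% interval -0.06 to 0.24), so for both chains a difference of the size seen for COL6A1 lay outside the interval. The ratio of COL4A2 to COL4A1 per length was 5.52 ± 0.32 in coculture and 5.99 ± 0.30 in controls. Its absolute value rests on the 14378-base length the table gives COL4A1.

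COL4A1 and COL4A2 lie head to head on chromosome 13 and share the short interval between their starts. In the deposited table that interval is 126 bases, chr13:110307158-110307283. It is shown from RefSeq (GRCh38.p14, plus strand, reading toward COL4A2) because this pair, unlike COL6A1 and COL6A2, shares a start region and neither member was called. Capitals mark CCAAT and GGGCGG, searched on both strands.
COL4A1-COL4A2 interval: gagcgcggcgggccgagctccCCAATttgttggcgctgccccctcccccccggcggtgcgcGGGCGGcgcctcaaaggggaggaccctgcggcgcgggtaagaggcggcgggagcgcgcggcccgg
Each motif stood there once, and CCAAT was found in 34.6% of all promoter windows. The guanine and cytosine content was 80.2% here and 79.6% in the COL6A2 sequence above.

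The chains of rarer basement membranes were low. COL4A5, which with COL4A3 and COL4A4 forms the scaffold of the kidney filter, was at 11.2 ± 1.98 CPM in coculture and 12.4 ± 3.13 CPM in controls. COL4A6, which pairs with COL4A5 in smooth muscle and epidermal membranes, was at 0.33 ± 0.075 CPM in coculture and 0.288 ± 0.14 CPM in controls. COL4A4 had 64 counts over the coculture libraries and 27 over the controls, and COL4A3 had 1 count in coculture and 0 in controls. These last 2 genes lie 5 bases apart and COL4A5 and COL4A6 346 bases apart in the deposited table.

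Types XVIII and XVII followed. COL18A1, the basement membrane multiplexin whose end fragment is endostatin, was at 87.98, 96.4, 87.9, 78.6, 106 and 90.2 CPM in coculture libraries 1 to 6, against 94.2, 103, 90.2 and 88.8 CPM in controls 1 to 4. The groups overlapped, with a fold change of -0.04 ± 0.09 on the log2 scale. SLC19A1, a folate carrier gene on the opposite strand, overlaps COL18A1 and had 109% as many counts. It was at 98.4 ± 28.2 CPM in coculture and 105 ± 14.9 CPM in controls. With no stated strand setting, reads from the stretch where these genes overlap cannot be told apart. COL17A1, the transmembrane collagen of hemidesmosomes, was at 58.7, 69.4, 90.5, 94.7, 81.4 and 83.8 CPM in coculture libraries 1 to 6, against 79.0, 71.9, 74.7 and 74.3 CPM in controls 1 to 4. Its coculture range enclosed all 4 controls (log2 fold change 0.09 ± 0.12). COL15A1, the relative of COL18A1, was at 0.258 ± 0.185 CPM in coculture and 0.259 ± 0.084 CPM in controls.

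**Figure D4:**
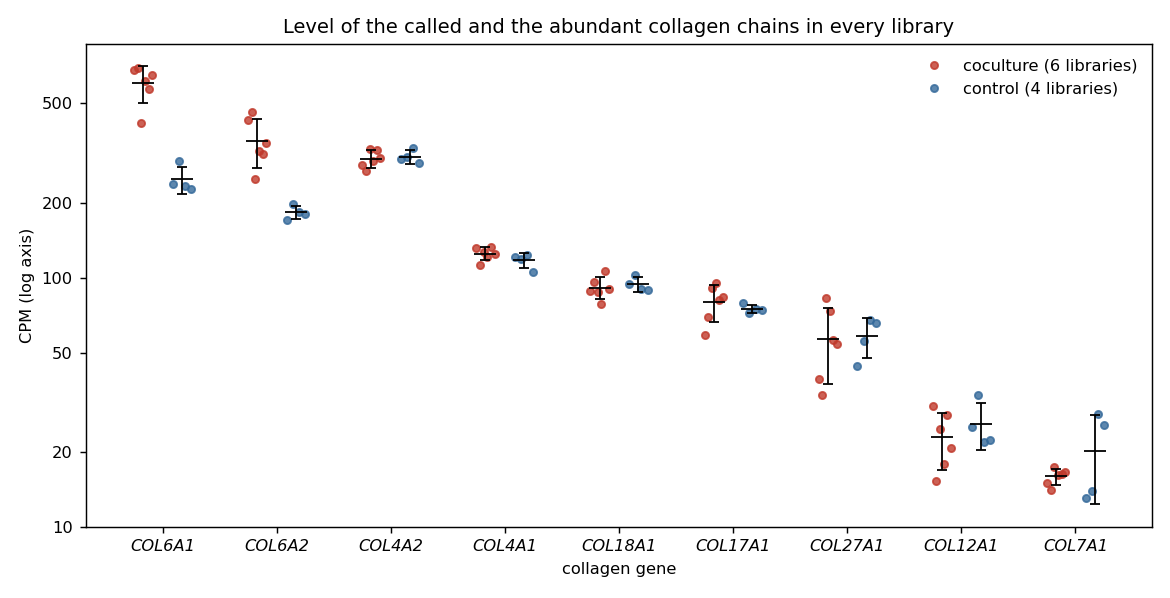
CPM on a log axis of COL6A1, COL6A2 and the 7 other chains with a mean of at least 20 CPM in either group, 1 point per library, coculture (red) left of control (blue), with the mean and SD. The coculture points of COL6A1 (417 to 691) and COL6A2 (249 to 463) clear their controls, and the groups of the other 7 chains overlap.

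COL27A1, a fibrillar chain of cartilage and of several epithelia, had the highest mean level per length of the fibrillar chains, 7.19 CPM per kilobase in coculture and 7.41 in controls. It was at 39.3, 33.6, 82.9, 73.2, 56.1 and 54.1 CPM in coculture libraries 1 to 6, against 44.2, 55.6, 67.7 and 65.6 CPM in controls 1 to 4. Cocultures 1 and 2 were the lowest of all 10 libraries, and the groups overlapped (log2 fold change -0.04 ± 0.23). An intron-borne miRNA, miR-455, is annotated inside it. Its arms lie at chr9:114209449-114209470 (5p) and chr9:114209487-114209507 (3p) on the plus strand in RefSeq (GRCh38.p14) and are shown with bases 2 to 8, the seed, in capitals, because they are the most abundant of the mature miRNAs that lie in collagen genes.
miR-455-5p: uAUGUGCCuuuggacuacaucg
miR-455-3p: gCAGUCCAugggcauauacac
miR-455-5p was at 868 ± 80.4 CPM of miRNA counts in coculture and 855 ± 80.9 CPM in controls (log2 fold change 0.02 ± 0.11, edgeR adjusted p = 0.947). miR-455-3p was at 701 ± 89.6 CPM in coculture and 612 ± 118 CPM in controls (0.19 ± 0.15, edgeR adjusted p = 0.601). Of 14 mature miRNAs that lie in collagen genes, 3 were tested and 0 were called by edgeR, DESeq2 or limma-voom, with 0 at an unadjusted edgeR p under 0.05, where 1.25% of the 797 tested miRNAs were called.

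The type V chains form thin fibres and start those of type I. COL5A1 was at 17.1, 9.52, 6.27, 3.47, 8.77 and 6.02 CPM in coculture libraries 1 to 6, against 14.2, 12.2, 18.3 and 15.5 CPM in controls 1 to 4. All coculture libraries but the first lay below every control. The fold change was -0.82 ± 0.33 on the log2 scale and did not pass (edgeR adjusted p = 0.431). Without coculture 1 it was -1.14 ± 0.24 and passed (edgeR adjusted p = 0.0424), and without cocultures 1 and 2 it was -1.31 ± 0.23 (edgeR adjusted p = 0.00889). LOC101448202, a noncoding row on the opposite strand, overlaps COL5A1 and had 76.0% as many counts. It was at 8.93 ± 1.13 CPM in coculture and 7.89 ± 1.17 CPM in controls. It overlaps only the end of COL5A1, and with no stated strand setting the reads from that stretch cannot be told apart.

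COL5A2, the partner of COL5A1, was at 7.22, 4.02, 5.01, 5.87, 5.003 and 4.67 CPM in coculture libraries 1 to 6, against 4.32, 3.95, 4.71 and 3.21 CPM in controls 1 to 4. The groups overlapped (log2 fold change 0.39 ± 0.18, edgeR adjusted p = 0.528). The ratio of COL5A1 to COL5A2 per length was 1.32 ± 0.57 in coculture, with a range of 0.485 to 1.94, and 3.10 ± 0.64 in controls, with a range of 2.54 to 3.96. This ratio was chosen with the values of both chains known and has no test. COL5A3, the remaining type V chain, had 19 counts in coculture, 15 of them in coculture 1, and 0 in controls.

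The other interstitial fibre chains were counted mainly in 1 library. COL1A1, the main chain of type I collagen of scar and stroma, was at 67.0 CPM in coculture 1 and 5.73, 2.89, 1.59, 4.22 and 2.43 CPM in cocultures 2 to 6, against 3.97, 2.45, 1.99 and 2.06 CPM in controls 1 to 4. Outside coculture 1 the groups overlapped, and the fold change of 2.41 ± 1.04 on the log2 scale did not pass (edgeR adjusted p = 0.474). Without coculture 1 it was 0.37 ± 0.35 (edgeR adjusted p = 0.868). COL1A2, the second type I chain, had 2214 counts in coculture 1 and 20 counts in the other 9 libraries together. Per length, COL1A2 was 0.83 of COL1A1 in coculture 1 and at most 0.079 of it in any other library. COL3A1, the chain of type III collagen of soft connective tissue, had 341 counts in coculture 1 and 5 in the other 9 libraries.

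In all, 16 of the 44 chains had their highest CPM in coculture 1. For COL4A3, COL9A1, COL20A1, COL22A1 and COL23A1 that rested on 1 to 4 counts. The share of all genes that were highest in coculture 1 is not given here, so this count has no background. COL1A1, COL1A2, COL3A1, COL6A3, COL11A1 and COL14A1 reached at least 5 times the next library there with at least 10 counts. COL11A1, a minor fibril chain of cartilage and tumor stroma, had 24 counts in coculture 1 and 12 elsewhere. COL14A1, a fibril-associated chain, had 77 in coculture 1 and 18 elsewhere. Several fibroblast and mural cell markers were also high there. DCN (decorin) was at 8.90 CPM and POSTN (periostin) at 3.85 CPM in coculture 1, and both were at 0 counts in the other 9 libraries. PDGFRA, the gene of a platelet-derived growth factor receptor of fibroblasts, was at 3.12 CPM there and at most 0.427 CPM elsewhere. Of the 15 markers, 11 were highest in coculture 1. The others were ACTA2, a smooth muscle actin gene at 22.6 CPM in coculture 1, 22.7 to 27.1 in the other coculture libraries and 20.98 to 32.1 in controls, TAGLN (5.11 in coculture 1, up to 15.6 in controls), MFAP5 (1.54, the lowest of the 10 libraries) and TCF21 (0). In the other gene lists used here, the part highest in coculture 1 ran from 4 of 22 (hydroxylation, glycosylation and folding) to 13 of 21 (matrix partners, which share DCN and LUM). Of the 15 markers, 8 were tested with 0 called by edgeR, DESeq2 or limma-voom and 1 at an unadjusted edgeR p under 0.05. For all tested genes the edgeR shares were 1.14% higher, 0.186% lower and 9.66% at that unadjusted p. The summed level of the 15 markers was 183 CPM in coculture 1, 64.6 to 143 in the other coculture libraries and 89.8 to 122 in controls. NOTCH3 was the largest part of that sum in every library. It was at 122 CPM in coculture 1, 30.6 to 110 in the other coculture libraries and 39.9 to 91.3 in controls. DCN, FAP, POSTN, DPT and PRRX1 were at 0 in every control. The part of such cells in the values of coculture 1 was not tested. COL6A1 and COL6A2 were at 1.25 ± 0.14 and 0.89 ± 0.15 on the log2 scale without coculture 1, with edgeR adjusted p of 0.00076 and 0.00819.

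**Figure D5:**
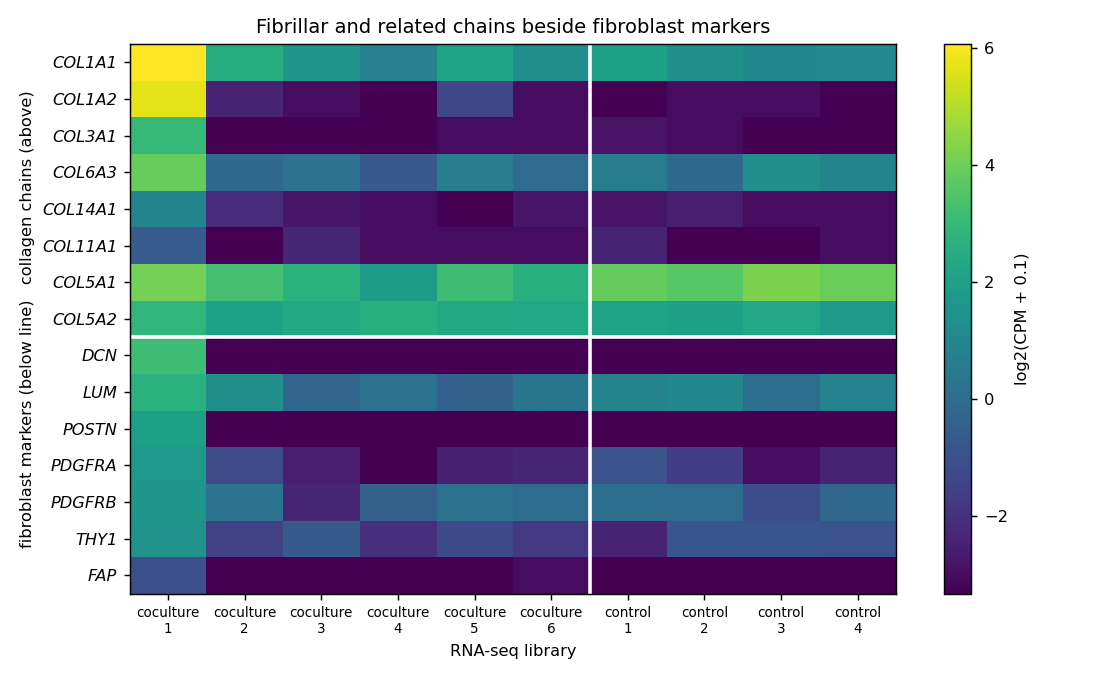
Log2(CPM + 0.1) in each library of 8 collagen chains (above the white line) and 7 of 15 fibroblast and mural cell markers (below it). Coculture is left and control right of the vertical line, and brighter is higher. The 7 markers shown were all highest in coculture 1. ACTA2, TAGLN, MFAP5 and TCF21, which were not, are left out. The column of coculture 1 is bright for COL1A1 (67.0 CPM), COL1A2 (50.8 CPM) and DCN (8.90 CPM), which are near the floor or far lower in the other 9 libraries.

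Of the anchoring, fibril-associated and transmembrane types, 0 of 6 tested chains were called, where 1.14% of all tested genes were called higher and 0.186% lower. COL7A1, which forms the anchoring fibrils under epithelia, was at 14.996, 14.1, 17.4, 16.2, 16.3 and 16.6 CPM in coculture libraries 1 to 6, against 13.03, 13.9, 28.2 and 25.5 CPM in controls 1 to 4. The 4 controls fell on both sides of the coculture range (log2 fold change -0.34 ± 0.20). COL12A1, a fibril-associated chain of dense connective tissue, was at 30.4, 15.3, 24.6, 17.9, 28.1 and 20.7 CPM in coculture libraries 1 to 6, against 25.1, 33.7, 21.9 and 22.3 CPM in controls 1 to 4. These groups overlapped (log2 fold change -0.17 ± 0.20). COL16A1, a related chain of skin and cartilage, was at 18.7 ± 2.65 CPM in coculture and 18.3 ± 2.33 CPM in controls. COL13A1, a transmembrane chain of cell adhesion sites, was at 8.58 ± 2.97 CPM in coculture and 8.89 ± 1.63 CPM in controls. COL25A1, a transmembrane chain of neurons and muscle, was at 0.572 ± 0.191 CPM in coculture and 0.351 ± 0.189 CPM in controls.

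The remaining tested chains did not pass either. COL8A1, a network-forming chain of vessel walls and the cornea, was at 7.40 ± 1.04 CPM in coculture and 5.92 ± 1.34 CPM in controls (log2 fold change 0.32 ± 0.16, edgeR adjusted p = 0.566). Its partner COL8A2 was at 0.326 ± 0.24 CPM in coculture and 0.114 ± 0.122 CPM in controls. COL24A1, a fibrillar chain of bone and cornea, was at 0.22 ± 0.105 CPM in coculture and 0.162 ± 0.125 CPM in controls. Of the 22 chains not tested, 20 had under 100 counts in all and reached at most 1.77 CPM in any library, and COL1A2 and COL3A1 were the others. COL2A1, the main fibrillar chain of cartilage, had 0 counts in all 10 libraries. The cartilage chain COL9A2 had 35 counts in coculture and 36 in controls. COL4A4 and COL9A2 were the untested chains with a count in every library. COL6A5, COL9A1, COL9A3, COL10A1, COL11A2, COL19A1, COL20A1, COL21A1, COL22A1, COL23A1, COL26A1 and COL28A1 had at most 10 counts in either group.

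The genes that modify and process collagen gave few calls, as did all tested genes (1.14% higher and 0.186% lower, 9.66% at an unadjusted p under 0.05). Of 22 genes for hydroxylation, glycosylation and folding of the chains, all were tested and 0 called by edgeR, with 3 at an unadjusted p under 0.05 and 0 called by limma-voom. DESeq2 called 1, P3H2, a prolyl hydroxylase gene whose edgeR log2 fold change was 0.34 (edgeR adjusted p = 0.0929). P4HB, a subunit of prolyl hydroxylase, was at 850 ± 37.8 CPM in coculture and 800 ± 52.0 CPM in controls. PPIB, a prolyl isomerase, was at 527 ± 21.8 CPM in coculture and 520 ± 75.3 CPM in controls. Of 17 tested genes for export, propeptide removal and cross-linking, 0 were called by edgeR, DESeq2 or limma-voom, with 4 at an unadjusted edgeR p under 0.05. TGM2, a transglutaminase, was at 1934 ± 484 CPM in coculture and 2557 ± 182 CPM in controls, and LOXL2, a lysyl oxidase, at 604 ± 128 CPM in coculture and 531 ± 42.4 CPM in controls. Without cocultures 1 and 2, TGM2 fell by 0.61 on the log2 scale and passed (edgeR adjusted p = 0.0181).

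Among 11 tested collagen receptors 0 were called by edgeR, DESeq2 or limma-voom, with 1 at an unadjusted edgeR p under 0.05. The edgeR shares for all tested genes were 1.14% higher, 0.186% lower and 9.66% at that unadjusted p. ITGA3, an integrin chain that mainly binds laminin, was at 1780 ± 511 CPM in coculture and 1744 ± 107 CPM in controls. ITGB1, its beta partner, was at 758 ± 109 CPM in coculture and 769 ± 76.2 CPM in controls. Among 15 tested matrix partners 0 were called by the same tools, again with 1 at an unadjusted edgeR p under 0.05. FN1 (fibronectin) was at 9194 ± 1361 CPM in coculture and 8932 ± 1700.2 CPM in controls, and AGRN, the heparan sulfate proteoglycan agrin, at 893 ± 99.4 CPM in coculture and 766 ± 92.6 CPM in controls.

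Collagen degradation was the single pathway list with edgeR calls, 3 higher and 0 lower of 11 tested, with 5 at an unadjusted p under 0.05. Over all tested genes, edgeR called 1.14% higher and 0.186% lower. An unadjusted edgeR p under 0.05 was reached by 9.66%, and 2.45% lay above every control in all coculture libraries. Limma-voom called 3. DESeq2 called 4, among them MMP16, a membrane-bound metalloproteinase, as lower, where edgeR gave a log2 fold change of -0.60 ± 0.17 (edgeR adjusted p = 0.172). MMP1, the interstitial collagenase, ran 25.9 to 75.5 CPM in coculture with a median of 35.5, against 10.9, 12.3, 11.96 and 11.5 CPM in controls 1 to 4. The groups did not overlap (log2 fold change 1.81 ± 0.27, edgeR adjusted p = 0.00393). MMP9, a gelatinase, ran 9.85 to 21.3 CPM in coculture with a median of 14.9, against 0.662, 1.26, 1.46 and 1.47 CPM in controls 1 to 4. CTSS, the lysosomal protease cathepsin S of antigen-presenting cells, ran 1.41 to 4.55 CPM in coculture with a median of 3.26, against 0.214, 0.222, 0.073 and 0.090 CPM in controls 1 to 4. For both, the lowest coculture library exceeded the highest control several times over, with log2 fold changes of 3.68 ± 0.31 and 4.35 ± 0.42 (edgeR adjusted p = 8.44e-05 and 0.000238). CTSS, like the 8 tested leukocyte markers, passed the count filter only through the coculture libraries. The part of leukocyte RNA in MMP1, MMP9 and CTSS was not tested. MMP14, the membrane collagenase, was at 1085 ± 59.2 CPM in coculture and 1172 ± 47.6 CPM in controls, and CTSB, cathepsin B, at 1202 ± 200 CPM in coculture and 896 ± 60.5 CPM in controls, neither called. Without coculture 3, CTSB rose by 0.50 on the log2 scale and passed (edgeR adjusted p = 0.0259).

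Epithelial and thyroid markers were partly present. KRT18, a keratin of simple epithelia, was at 356 CPM in coculture and 350 CPM in controls, and PAX8, a thyroid transcription factor gene, at 624.9 CPM in coculture and 508 CPM in controls. CDH1, NKX2-1 and TSHR, which encode E-cadherin, a thyroid transcription factor and the thyrotropin receptor, were at 0 in every control. Of 7 tested epithelial and thyroid markers 0 were called by edgeR, DESeq2 or limma-voom, with 2 at an unadjusted edgeR p under 0.05. By edgeR, 1.14% of all tested genes were called higher and 0.186% lower, and 9.66% reached that unadjusted p.

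The miR-29 family is known to pair with many collagen transcripts. Its mature 3p members, from RefSeq (GRCh38.p14), are shown because they share 1 seed, bases 2 to 8, in capitals. On the minus strand, miR-29a-3p lies at chr7:130876748-130876769, miR-29c-3p at chr1:207801865-207801886, and miR-29b-3p at chr7:130877467-130877489 and chr1:207802450-207802472.
miR-29a-3p: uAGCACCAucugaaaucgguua
miR-29b-3p: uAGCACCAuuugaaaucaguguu
miR-29c-3p: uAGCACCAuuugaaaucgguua
All 7 mature miRNAs of the family were tested in the miRNA libraries and 0 were called by edgeR, by DESeq2 or by limma-voom, with 0 at an unadjusted edgeR p under 0.05. Of all 797 tested miRNAs edgeR called 1.25%, so 0 of 7 is near that share. The share of all miRNAs at an unadjusted p under 0.05 is not given here. miR-29b-3p ran 317 to 516 CPM in coculture with a median of 486, against 487, 475, 705 and 518 CPM in controls 1 to 4. Its fold change was -0.27 ± 0.16 on the log2 scale (edgeR adjusted p = 0.548), and control 3 stood above all other libraries. miR-29a-3p ran 333 to 433 CPM in coculture with a median of 401, against 448, 407, 297 and 335 CPM in controls 1 to 4 (0.07 ± 0.14, edgeR adjusted p = 0.831). miR-29c-3p was at 8.16 ± 2.35 CPM in coculture and 8.92 ± 1.67 CPM in controls. The RNA and miRNA libraries were matched by group alone, so no relation between a miRNA and a chain was computed.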

How the data were processed

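RNA-seq and miRNA-seq were made from 6 coculture and 4 control libraries each, grouped by the treatment labels. The authors deposited raw read counts per gene symbol and per mature miRNA. HISAT2 2.0.4, BWA and GRCh38.p10 are named in the submitters' processing notes. The counter, annotation and strand setting are not stated in the sources used here. Library totals were 40237801 to 48197608 for RNA and 3971608 to 5895539 for miRNA, and no replicate pair agreed within sampling noise. The number of unused sample columns was 0.

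Counts were scaled by TMM (also for CPM), filtered with filterByExpr and tested with edgeR 4.0.16 (R 4.3.3, robust quasi-likelihood, Benjamini-Hochberg adjustment), after tests on simulated counts. DESeq2 1.42.0, limma 3.58.1 (voom), other scalings, no filter, a replicate block and leaving out libraries were alternatives. Ratios were tested with SciPy 1.17.1. Levels per kilobase used the deposited lengths. Intervals are 95% by a normal approximation from the SE, somewhat narrower than the quasi-likelihood test implies. Floors cover counting error only.

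The chains, the lists of collagen-related and marker genes and the tests were chosen with earlier results of these data known. Called chains and those with a mean of at least 20 CPM in either group were given in every library, the other chains by means or counts, and from each pathway list the called genes and the 2 most abundant others. COL1A1, COL5A1, COL5A2 and COL6A3 were given in every library, and P3H2, MMP16 and single markers named, after their values were seen. Of the export list, 21 of 22 entries were matched, since TANGO1 is another name of MIA3.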

Additional observations from a re-analysis of the deposited data

Results flagged for a closer look

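The 23 chains with at least 100 counts over all libraries together were taken in coculture and in controls apart, giving 46 groups of libraries. Of these groups, 8 held a library farther from the others than Dixon's 95% limit, where chance gives about 1 in 20. Coculture 1 accounted for 5 of them, being the highest of its group for COL1A1 (67.0 CPM), COL1A2 (50.8), COL3A1 (7.82), COL6A3 (14.8) and COL8A1 (9.47). The others were COL25A1 in coculture 2 (0.926 CPM), COL6A1 in control 2 (294 CPM) and COL8A2 in control 2 (0.297 CPM). Without control 2, COL6A1 was at 1.38 on the log2 scale.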

How the results depend on the processing

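COL6A1 kept its call under all 17 alternatives (log2 fold change 1.18 to 1.38), and COL6A2 under 16. Over all genes, 178 were higher and 29 lower; DESeq2 called 333 and 106, the replicate block 100 and 10, and leaving out 1 library 112 to 204 and 4 to 36, while 112 were lower without cocultures 1 and 2. Collagen chains called lower numbered 0 to 1 on leaving out 1 library (COL5A1, without coculture 1) and 1 without cocultures 1 and 2. The shared numbers of the groups were not shown to pair the libraries (correlations of same-numbered deviations 0.35, -0.083, 0.20 and 0.14). With the replicate block 1 chain was called higher, COL6A2 was at 0.96 (edgeR adjusted p = 0.0662), and the log2 COL6A1 to COL6A2 ratio differed by 0.299 (exact p = 0.125, the smallest 4 pairs allow). TYROBP and FCER1G also missed the threshold with the block. No value that changed sign had been called, and the causes were not tested. Sign changes were, without cocultures 1 and 2, COL4A2 0.022, COL6A3 -0.75, COL15A1 0.40, COL27A1 0.18, LOXL2 -0.025, ITGA3 -0.25, FN1 -0.0049, miR-29c-3p 0.033 and SLC19A1 0.13. With the block they were COL16A1 -0.055, ITGB1 0.032, FN1 -0.036 and KRT18 -0.043, and with limma-voom COL6A3 -0.084 and ITGA3 -0.016. Leaving out 1 library gave COL13A1 -0.20 to 0.075, COL15A1 -0.33 to 0.23, COL16A1 -0.060 to 0.087, COL27A1 -0.18 to 0.069, COL4A2 -0.052 to 0.019, COL4A6 -0.057 to 0.42, COL6A3 -0.78 to 1.25, FN1 -0.045 to 0.12, ITGA3 -0.10 to 0.11, ITGB1 -0.084 to 0.043, KRT18 -0.039 to 0.085, PPIB -0.065 to 0.091, SLC19A1 -0.19 to 0.0080, miR-29a-3p -0.0042 to 0.17, miR-29c-3p -0.27 to 0.025, miR-29c-5p -0.16 to 0.077, miR-455-5p -0.019 to 0.10 and miR-6815-3p -0.61 to 0.0023. Depth limits the 20 untested chains under 100 counts.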
